A study of Homo sapiens with 18 samples.

Results

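ATF4 and 36 other genes of the amino acid response were followed through 18 RNA libraries of KNS-42 cells, a human glioma cell line that carries Cas9. The 37 genes were named as a list, because their level had been seen to follow the replicate number of the libraries, so their differences between numbers are given as a description with no test. The deposited table holds 58050 genes, of which 15228 passed a filter on low values and were tested, and 35 of the 37 listed genes were among them. The cells were of 3 lines, labelled DDX3Xoe and DDX3Yoe, named for overexpression of DDX3X and DDX3Y, and parental. Each line received lentivirus for guide 395, directed at DDX3X, or for the control guide AAVS1, and RNA was taken on day 7. Each of the 6 groups has 3 libraries, numbered 1 to 3 in the labels. All cells carry Cas9, were kept in puromycin and received a guide virus, and the labels do not say whether a line is 1 clone, whether numbers mark separate cultures, or what a shared number stands for. The p-values below therefore measure only the spread between these libraries, which may be technical.

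ATF4 is a transcription factor of the integrated stress response. Kinases that sense amino acid shortage, misfolded protein in the endoplasmic reticulum, double-stranded RNA or lack of haem phosphorylate the initiation factor eIF2, which lowers protein synthesis in general while the ATF4 message is translated more. ATF4 then binds, with C/EBP partners, to C/EBP-ATF response elements and turns on genes for amino acid uptake and synthesis, for charging of tRNA and for the later stress response. DDX3X is an RNA helicase with a part in translation initiation, and DDX3Y is its paralogue on the Y chromosome.

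Promoters of these genes were read for that element as a description. The list was not chosen by sequence but was chosen by the measured level of its genes over the replicate numbers. Its genes were also named as genes of the amino acid response, which ATF4 turns on through that element. A share of matches above that of all promoters may therefore be built into the list and is no independent evidence. Of the 37 genes, 30 had promoters in the RefSeq table of GRCh38.p14, 49 promoters in all, each 250 bases before to 50 after a transcript's start. The 9-base form TGATGNAAT was found on either strand of 0 of the 49, against 0.991% of all 35116 promoters. The shorter core TGATGNAA, of which every match to the first form is also a match, was found in 9 of the 49 (18.4%), against 3.62% of all promoters. By gene, 9 of 30 (30%) had at least 1 promoter with the core, against 4.46% of all genes with a promoter, and these were ASNS, ATF3, CEBPG, CHAC1, JDP2, SLC1A4, SLC1A5, SLC3A2 and SLC7A1. A match is a run of letters and says nothing of binding, and elements outside this window would not be seen. The promoters printed here belong to an amino acid enzyme, a stress effector and a partner of ATF4, and the capitals mark the core. In ASNS, asparagine synthetase, at chr7:97872359-97872658 on the minus strand, the core begins 68 bases upstream of the start. In CHAC1, at chr15:40953221-40953520 on the plus strand, it lies on the opposite strand, 209 bases upstream, and is printed as TTGCATCA. In CEBPG, at chr19:33373863-33374162 on the plus strand, it begins 42 bases upstream.
ASNS: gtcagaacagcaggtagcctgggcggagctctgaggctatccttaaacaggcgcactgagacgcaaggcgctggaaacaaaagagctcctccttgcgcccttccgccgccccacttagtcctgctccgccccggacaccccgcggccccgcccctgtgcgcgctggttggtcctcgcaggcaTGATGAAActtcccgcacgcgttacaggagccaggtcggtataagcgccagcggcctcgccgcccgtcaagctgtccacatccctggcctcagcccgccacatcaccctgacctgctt
CHAC1: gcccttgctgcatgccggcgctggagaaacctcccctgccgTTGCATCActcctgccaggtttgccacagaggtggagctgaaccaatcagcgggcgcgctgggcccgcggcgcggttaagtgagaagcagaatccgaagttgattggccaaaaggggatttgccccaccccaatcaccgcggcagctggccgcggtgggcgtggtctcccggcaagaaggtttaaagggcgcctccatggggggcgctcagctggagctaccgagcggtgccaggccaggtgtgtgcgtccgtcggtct
CEBPG: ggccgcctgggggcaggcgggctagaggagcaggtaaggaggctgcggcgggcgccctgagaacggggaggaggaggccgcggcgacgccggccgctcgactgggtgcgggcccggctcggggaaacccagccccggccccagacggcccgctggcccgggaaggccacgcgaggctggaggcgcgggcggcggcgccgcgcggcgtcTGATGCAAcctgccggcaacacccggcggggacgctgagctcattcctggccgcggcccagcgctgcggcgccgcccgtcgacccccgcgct

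The libraries held 5.67 to 13.2 M reads (median 8.85 M), and 7.78 to 16.5% of them came from mitochondrial genes. Levels are given as normalised reads, that is reads per gene divided by 1 size factor per library, from libraries of transcript 3' ends, where transcript length does not enter the count. The glial and neural markers SOX2, VIM, GFAP and NES were present in every library, FABP7 had 4.01 to 381 normalised reads, and OLIG2 and S100B were at 0 in every library. Of the blood markers PTPRC and CD3E stayed at or under 6.69 and CD68 had 8.87 to 178. Of the epithelial markers EPCAM stayed at or under 4.92, CDH1 had 1.00 to 20.7 and KRT8 31.6 to 108, and of the endothelial ones CDH5 reached 10.5 and PECAM1 40.5. DDX3X, the target of guide 395, had 1416, 716 and 578 normalised reads in DDX3Xoe cells with guide 395 (replicates 1, 2 and 3), against 668, 1504 and 1162 with AAVS1. It had 878, 739 and 653 in DDX3Yoe cells with guide 395, against 1379, 1557 and 1439 with AAVS1, and 861, 844 and 953 in parental cells with guide 395, against 1780.5, 1923 and 1729 with AAVS1. The replicate 1 libraries labelled DDX3Xoe thus go against their guide labels. Median number differences and median fold changes of DDX3Xoe cells over the 35 genes are given with and without them. Other values of DDX3Xoe cells include them unless stated. The name DDX3Xoe was not matched by a higher DDX3X level either. Against parental cells the log2 fold change was -0.78 under AAVS1 (limma adjusted p of 1.00) and -0.08 under guide 395 (0.911). Both values include the replicate 1 libraries. Reads of 3' ends would miss an introduced DDX3X that lacks the gene's own 3' end, so this level need not show the overexpression. Between the guides, with all 18 libraries, DDX3X did not reach a limma adjusted p under 0.05 in any line. Its log2 fold change was -1.03 in parental cells (limma adjusted p of 0.0800, DESeq2 adjusted p of 0.0265) and -0.95 in DDX3Yoe cells. In DDX3Xoe cells it was -0.33, or -1.04 without both replicate 1 libraries. Leaving out these 2 libraries, which share in the common spread, gave a limma adjusted p of 0.0121 in parental cells. Over all settings that left out libraries the parental value ranged from 0.0121 to 0.444. An edit made by Cas9 need not change the number of 3' end reads, so the DDX3X level checks the guide only in part. A difference in bulk RNA cannot tell fewer responding cells from less RNA per cell.

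In 5 of the 6 groups the library numbered 3 held the highest level of most of the 35 genes, and in parental cells with guide 395 it did not. The log2 difference between number 3 and the mean of numbers 1 and 2 had a median over the 35 genes of 1.60 in DDX3Xoe cells with guide 395 and 1.35 with AAVS1. It was 1.32 in DDX3Yoe cells with guide 395 and 1.56 with AAVS1. In parental cells it was -0.041 with guide 395 and 1.34 with AAVS1. Over all genes tested the same medians lay between -0.007 and 0.047. Without replicate 1 of the DDX3Xoe groups, an alternative chosen after seeing the data, number 3 minus number 2 had a median of 1.53 with guide 395 and 1.48 with AAVS1. These differences are on the scale of log2(normalised value + 1), on which changes of weakly expressed genes come out too small.

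Number 3 was above both other numbers for 32 of the 35 genes in DDX3Xoe cells with guide 395, where 34.2% of all genes tested were. The count was 31 in DDX3Xoe cells with AAVS1 (24.4% of all genes), 35 in DDX3Yoe cells with guide 395 (35.8%) and 33 in DDX3Yoe cells with AAVS1 (36.3%). It was 11 in parental cells with guide 395 (32.9%) and 31 in parental cells with AAVS1 (30.1%). A difference of at least 1 on the log2 scale, a doubling, was reached by 28 genes in DDX3Xoe cells with guide 395 (11.1% of all genes), 25 with AAVS1 (9.41%), 26 in DDX3Yoe cells with guide 395 (7.16%) and 29 with AAVS1 (7.61%). In parental cells it was reached by 0 of the 35 with guide 395 (6.18%) and by 23 with AAVS1 (10%). In DDX3Xoe cells without replicate 1, number 3 was above number 2 for 32 genes with guide 395 (50.2% of all genes) and 34 with AAVS1 (50.9%), and by at least 1 for 26 (15.3%) and 26 (16.4%). Since the list was chosen for this contrast in these same libraries, the counts and their distribution over the groups are a description only.

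**Figure D1:**
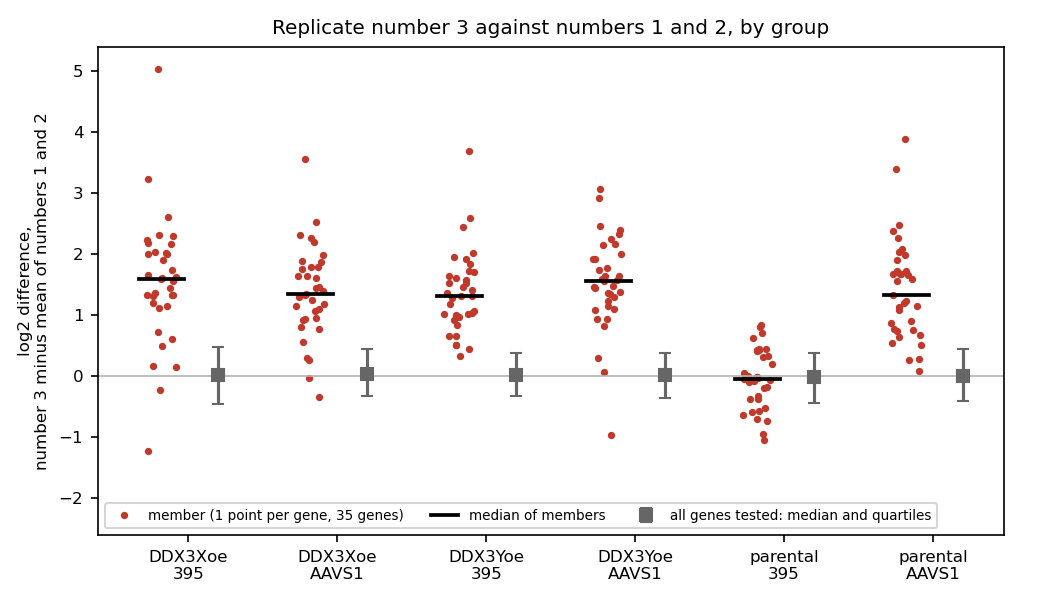
Each red point is 1 of the 35 genes, plotted as its log2 difference between number 3 and the mean of numbers 1 and 2 in the group named on the x axis; black lines are medians of the genes, and grey squares with bars are the median and quartiles of all genes tested. The points lie mostly above 0 in 5 groups, with medians between 1.32 and 1.60, and around 0 in parental cells with guide 395, with a median of -0.041.

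Number 3 was highest in at least 5 of the 6 groups for 30 of the 35 genes, where 6.11% of all genes tested were, and in all 6 groups for 10 (1.65% of all). Of the 20 genes with exactly 5 groups, the group left out was parental cells with guide 395 for 19 and DDX3Xoe cells with guide 395 for 1, SLC38A2. Among the 680 genes of the whole table with exactly 5 groups, parental cells with guide 395 were the group left out for 296 (43.5%). The list was chosen from these same values, so this comparison is also a description. The 5 genes that fell short were ATF4 and CTH, with 4 groups each, CEBPG with 3, and ALDH18A1 and VLDLR with 1 each. By the mean difference over the 6 groups, 6 of the 35 genes were among the first 50 of all genes tested and 7 among the first 100, led by TRIB3 at rank 7, ALDH1L2 at 10, CHAC1 at 20, SESN2 at 38, SLC6A9 at 43 and DDIT3 at 45. Leaving out both replicate 1 libraries labelled DDX3Xoe gave 31 genes in place of 30.

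**Figure D2:**
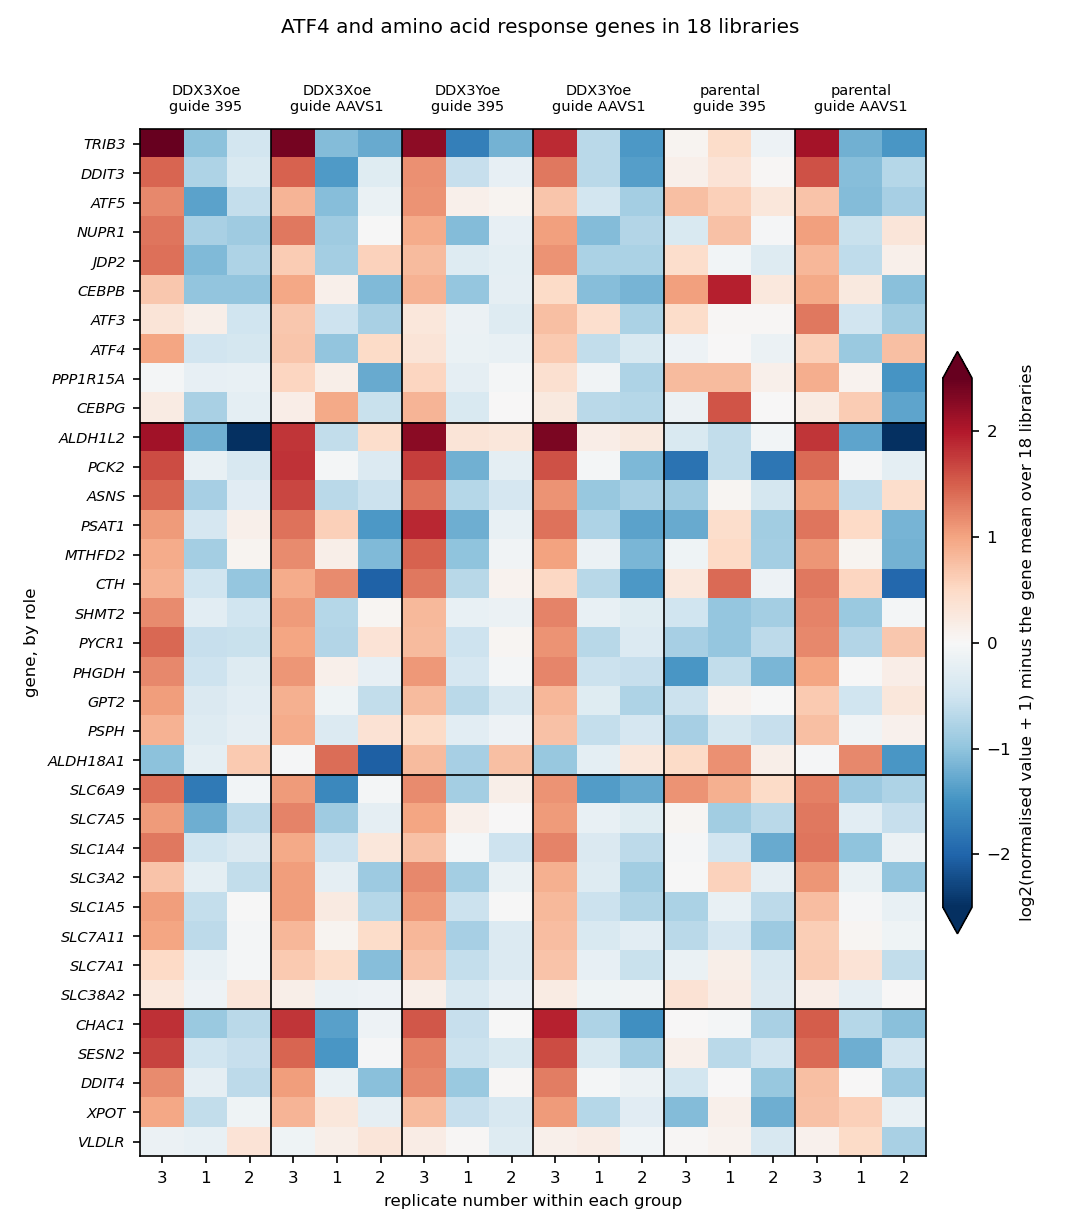
Rows are the 35 genes by role and columns the 18 libraries, with number 3 first in each group; colour is log2(normalised value + 1) minus the gene's mean over all libraries, red above and blue below. The number 3 column is red down most of its length in 5 groups, while parental cells with guide 395 show pale or mixed colours under all 3 numbers.

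The first role is that of the transcription factors and regulators, 10 genes, 8 of which had number 3 highest in at least 5 groups. The ATF4 gene lies at chr22:39519695-39522685 on GRCh38. Its message had 12293 normalised reads in number 3 of DDX3Xoe cells with guide 395, against 4435 and 4577 in numbers 1 and 2, and 9933 with AAVS1, against 3109.8 and 8566. In DDX3Yoe cells number 3 had 7755 with guide 395, against 5497 and 5405, and 9698 with AAVS1, against 4016 and 4729.9. In parental cells number 3 had 5686 with guide 395, against 6244 and 5548, and 9333 with AAVS1, against 3237 and 10428. ATF4 was thus high in 5 of the number 3 libraries and also in number 2 of both parental and DDX3Xoe cells with AAVS1. Number 3 was its highest library in 4 groups, with a mean difference of 0.78. CTH also had 4 groups, CEBPG had 3, and ALDH18A1 and VLDLR had 1 each.

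TRIB3, a pseudokinase that ATF4 and CHOP induce and that restrains them in turn, had the largest mean difference of the list, 2.79 on the log2 scale. In number 3 it had 879 normalised reads in DDX3Xoe cells with guide 395 and 819 with AAVS1, 738 in DDX3Yoe cells with guide 395 and 571 with AAVS1, and 163 in parental cells with guide 395 and 659 with AAVS1. In the 12 libraries numbered 1 or 2 it lay between 46.5 and 213, with a median of 70.1. All number 3 libraries but that of parental cells with guide 395 lay above this range, and within that group the order was 163 in number 3, against 213 and 143. In number 2 of parental cells with AAVS1, where ATF4 had 10428, TRIB3 had 55.8, and in number 2 of DDX3Xoe cells with AAVS1, where ATF4 had 8566, it had 63.9.

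DDIT3, which encodes the stress factor CHOP, had 2509 normalised reads in number 3 of DDX3Xoe cells with guide 395 and 2516 with AAVS1, 2014 in DDX3Yoe cells with guide 395 and 2255 with AAVS1, and 991 in parental cells with guide 395 and 2733 with AAVS1. The other numbers lay between 342 and 1159, and the highest of these was number 1 of parental cells with guide 395. ATF5, a relative of ATF4 whose translation is controlled in the same way, had 1109 in number 3 of DDX3Xoe cells with guide 395 and 868 with AAVS1, 1049 in DDX3Yoe cells with guide 395 and 777 with AAVS1, and 808 in parental cells with guide 395 and 789.9 with AAVS1. Under numbers 1 and 2 it had 189.5 to 722, so that for ATF5 the number 3 library was the highest in all 6 groups. In parental cells with guide 395 numbers 1 and 2 of ATF5 were already high, at 722 and 582, against 226 and 268 with AAVS1.

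Of the other regulators, ATF3, a stress-induced repressor, JDP2 and PPP1R15A, which encodes a subunit that directs the phosphatase of eIF2, had number 3 highest in all 6 groups. The mean difference was 0.95 for ATF3 and 0.78 for PPP1R15A, while JDP2, a related repressor, had 529.8 to 1019 normalised reads in number 3 and 183 to 586 in numbers 1 and 2. NUPR1, a small stress-induced chromatin protein, and CEBPB, a C/EBP partner, had it in 5, with 1.31 and 1.24. CEBPB had 779 normalised reads in number 3 of parental cells with guide 395, against 1475 and 461 in numbers 1 and 2, and the value of number 1 was the highest of all 18 libraries. CEBPG, the main dimer partner of ATF4 at amino acid response elements, had number 3 highest in 3 groups, with a mean difference of 0.38 and its highest value, 1082, also in number 1 of parental cells with guide 395.

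The second role is that of the enzymes of amino acid synthesis and one-carbon metabolism, 12 tested genes, 10 of which had number 3 highest in at least 5 groups. ASNS, which makes asparagine from aspartate, had 3789 normalised reads in number 3 of DDX3Xoe cells with guide 395 and 4362 with AAVS1, 3518 in DDX3Yoe cells with guide 395 and 3005 with AAVS1, and 745 in parental cells with guide 395 and 2857 with AAVS1. Under the other numbers it lay between 709 and 1861, with a median of 923. In parental cells with guide 395 number 3 was the lowest of the 3 libraries, at 745, against 1432 and 1016. PCK2, the mitochondrial enzyme that makes phosphoenolpyruvate, had 265 in number 3 of DDX3Xoe cells with guide 395 and 301 with AAVS1, 285 in DDX3Yoe cells with guide 395 and 259 with AAVS1, and 22.9 in parental cells with guide 395 and 229.8 with AAVS1. Under numbers 1 and 2 PCK2 had 23.6 to 83.3 normalised reads, so the number 3 library of parental cells with guide 395 was the lowest of all 18 for PCK2, and the other number 3 libraries were the highest.

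PSAT1, the aminotransferase of serine synthesis, had 1632 normalised reads in number 3 of DDX3Xoe cells with guide 395 and 2008 with AAVS1, 2904 in DDX3Yoe cells with guide 395 and 1997 with AAVS1, and 324 in parental cells with guide 395 and 1984 with AAVS1. Numbers 1 and 2 had 288 to 1175, and number 1 was the higher of the pair in both parental groups, with 1058 and 1102. PHGDH and PSPH, the first and last enzymes of the same pathway, had mean differences of 1.03 and 0.73. SHMT2, MTHFD2 and ALDH1L2, which carry one-carbon units in mitochondria, had 1.26, 1.40 and 2.48. ALDH1L2 had few reads, at most 34.1 in numbers 1 and 2 and 88.1 to 131 in number 3 outside parental cells with guide 395, where it had 18.8. PYCR1, which makes proline, and GPT2, an alanine aminotransferase, had 1.18 and 0.92. SHMT2 had number 3 highest in all 6 groups, and the other enzymes named in this paragraph in every group but parental cells with guide 395.

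ALDH18A1, the enzyme of the first step from glutamate to proline, was the only one of the 35 genes with a mean difference below 0, at -0.19, and number 3 was highest in DDX3Yoe cells with guide 395 alone. It had 148 normalised reads in number 3 of DDX3Xoe cells with guide 395, against 256 and 473, and 297 with AAVS1, against 798 and 72.4. CTH, which makes cysteine from cystathionine, had number 3 highest in 4 groups, and number 1 was the highest in parental cells with guide 395, with 229, and in DDX3Xoe cells with AAVS1, with 194. The enzyme before it, CBS, was left out of the fit, with at most 2.23 normalised reads in any library, and its reads could be split with the near-identical copy CBSL. ATF4, ASNS, PSAT1, MTHFD2 and SLC7A5 have pseudogene copies in the annotation that could likewise share reads.

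The third role is that of the amino acid transporters, 8 genes, all of which had number 3 highest in at least 5 groups. SLC6A9, a glycine transporter, had 1322 normalised reads in number 3 of DDX3Xoe cells with guide 395 and 1060.0 with AAVS1, 1154 in DDX3Yoe cells with guide 395 and 1110.1 with AAVS1, and 1101 in parental cells with guide 395 and 1207 with AAVS1. In parental cells with guide 395 numbers 1 and 2 had 939 and 710.3, above all other libraries numbered 1 or 2, which had 148 to 564. SLC6A9 was thus high in all 3 libraries of that group.

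SLC7A5, the light chain of the large neutral amino acid exchanger LAT1, had 2595 normalised reads in number 3 of DDX3Xoe cells with guide 395 and 2902 with AAVS1, 2462 in DDX3Yoe cells with guide 395 and 2586 with AAVS1, and 1279 in parental cells with guide 395 and 3068 with AAVS1. Numbers 1 and 2 had 526 to 1354. The number 3 library of parental cells with guide 395 was above its own numbers 1 and 2, which had 679 and 776, but within the range of the libraries numbered 1 or 2 as a whole. SLC1A4, a carrier of alanine, serine and cysteine, had 1542 in number 3 of DDX3Xoe cells with guide 395 and 1198 with AAVS1, 1025 in DDX3Yoe cells with guide 395 and 1457 with AAVS1, and 604 in parental cells with guide 395 and 1557 with AAVS1, and numbers 1 and 2 had 258 to 747.

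SLC3A2, the heavy chain shared by LAT1 and the cystine exchanger, had a mean difference of 1.24, and SLC7A11, the light chain of that exchanger, 0.84. The glutamine carrier SLC1A5 had 0.99 and the cationic amino acid carrier SLC7A1 had 0.76. SLC38A2, a sodium-coupled neutral amino acid carrier, had the smallest of the transporters, 0.32, with 2119 to 3435 normalised reads in numbers 1 and 2 and 3072 to 3587 in number 3.

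The last role is that of stress effectors and others, 5 tested genes, 4 of which had number 3 highest in at least 5 groups. CHAC1, which breaks down glutathione, had 1526 normalised reads in number 3 of DDX3Xoe cells with guide 395 and 1501 with AAVS1, 1264 in DDX3Yoe cells with guide 395 and 1639 with AAVS1, and 435 in parental cells with guide 395 and 1237 with AAVS1. Numbers 1 and 2 had 148 to 427, so number 3 of parental cells with guide 395 stood just above them and the other number 3 libraries far above. SESN2, a leucine-binding inhibitor of mTORC1 signalling, had 4887 in number 3 of DDX3Xoe cells with guide 395 and 4185 with AAVS1, 3640.0 in DDX3Yoe cells with guide 395 and 4699 with AAVS1, and 1653 in parental cells with guide 395 and 4042 with AAVS1. Numbers 1 and 2 of SESN2 lay between 556 and 1480.5. Number 3 of SESN2 was also above numbers 1 and 2 in parental cells with guide 395, by 0.70 on the log2 scale, against 2.26 with AAVS1.

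DDIT4, another inhibitor of mTORC1, had 283 normalised reads in number 3 of DDX3Xoe cells with guide 395 and 256 with AAVS1, 285 in DDX3Yoe cells with guide 395 and 303 with AAVS1, and 89.7 in parental cells with guide 395 and 209.7 with AAVS1, and numbers 1 and 2 had 59.6 to 126. XPOT, the exporter of tRNA from the nucleus, had a mean difference of 0.83. VLDLR, a lipoprotein receptor, had 0.05, with 395 to 497 normalised reads in number 3 and 249 to 608 in numbers 1 and 2. STC2, a secreted glycoprotein, was at 0 in all 18 libraries and was not tested.

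Each number and group has 1 library, so that the departure of parental cells with guide 395 from the other groups has no replicate and was not tested. Number 3 had the lowest mitochondrial share of its group in 4 of the 6 groups, the most reads in 3 and the most genes with a read in 2. The mitochondrial share was 7.78 to 11.3% in number 3, 9.11 to 14.6% in number 1 and 8.02 to 16.5% in number 2. Cell type markers also moved with the number. GFAP, the glial intermediate filament, was lowest in number 3 in all 6 groups, with a mean log2 difference of -2.02 (rank 15208 of 15228 genes). By group it was -1.58 in DDX3Xoe cells with guide 395 and -2.94 with AAVS1, -2.04 in DDX3Yoe cells with guide 395 and -2.08 with AAVS1, and -0.44 in parental cells with guide 395 and -3.07 with AAVS1. FABP7, a fatty acid binding protein of neural progenitors, was likewise lowest in number 3 in all 6 groups (mean difference -1.84, rank 15194). The other 7 tested markers had mean differences of -0.63 (VIM) to 0.70 (CD68). The part of these measures in the pattern was not tested.

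Other genes of the stress pathways were taken from lists. Each count of number 3 being highest in at least 5 groups is to be set beside 6.11% of all genes tested. The 18 tested genes of the endoplasmic reticulum chaperone arm of the unfolded protein response, which is driven by XBP1 and ATF6 more than by ATF4, had number 3 highest in at least 5 groups in 15 cases. Their median log2 difference of number 3 was 1.42 in DDX3Xoe cells with guide 395 and 1.47 with AAVS1, 1.19 in DDX3Yoe cells with guide 395 and 1.19 with AAVS1, and -0.085 in parental cells with guide 395 and 1.57 with AAVS1. HSPA5, which encodes the chaperone BiP that keeps the stress receptors silent, is named here after its values were seen. It had 59557 normalised reads in number 3 of DDX3Xoe cells with guide 395 and 58323 with AAVS1, 43617 in DDX3Yoe cells with guide 395 and 53330.4 with AAVS1, and 16284 in parental cells with guide 395 and 68581 with AAVS1. The libraries numbered 1 or 2 had 8336 to 17460.3, so here too all number 3 libraries but that of parental cells with guide 395 lay above the range of the other numbers.

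The 20 cytosolic aminoacyl-tRNA synthetases, which load amino acids onto tRNA, had number 3 highest in at least 5 groups in 11 cases, and their group medians were 0.51 to 0.78 in the same 5 groups and 0.078 in parental cells with guide 395. Of 28 tested further ATF4 targets and partners 11 did, with medians of 0.40 to 0.82 in these 5 groups and 0.032 in parental cells with guide 395. GDF15, a secreted stress signal also named after its values were seen, had 1813 to 2518 normalised reads in number 3 of these 5 groups and 406 in number 3 of parental cells with guide 395, against 95.5 to 353 in all libraries numbered 1 or 2. The 18 eIF2 kinases, eIF2 and eIF2B subunits and regulators act upstream of ATF4 and mostly not through their own transcript level. Number 3 was highest in at least 5 groups for 3 of them (16.7%), against 6.11% of all genes tested. The group medians of the 18 lay between -0.10 and 0.098.

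**Figure D3:**
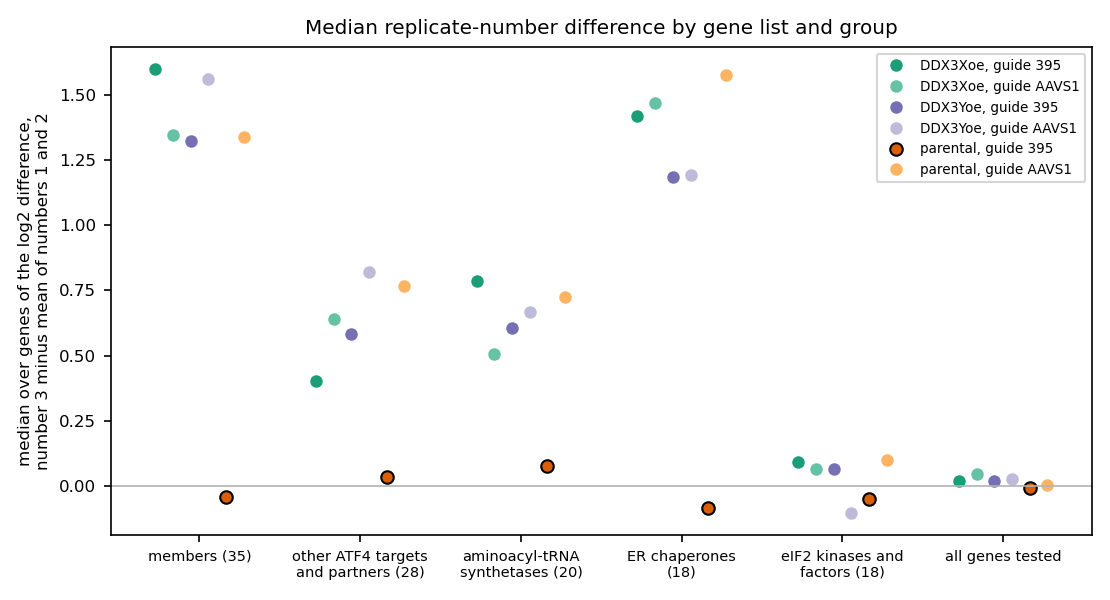
Median log2 difference between number 3 and the mean of numbers 1 and 2 (y axis) for each gene list (x axis, number of tested genes in brackets) in each of the 6 groups, shown by colour. Parental cells with guide 395, outlined in black, lie between -0.085 and 0.078 in every list, while the other groups lie at 1.32 to 1.60 for the 35 genes and at 1.19 to 1.57 for the chaperones; the eIF2 kinases and factors lie near 0 in every group.

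The groups of the design were then compared with the numbers left as replicates. None of the 35 genes passed limma's test, at a Benjamini-Hochberg adjusted p under 0.05 over all genes, in any of 12 comparisons. The list was chosen for differing between numbers, and the numbers are the replicates here, so that choice itself widens the spread within groups. The counts below therefore cannot tell absence of a guide effect from a spread too wide to show it. In parental cells 0 of 35 were called between guide 395 and AAVS1, where 1.78% of all genes tested were, and the count at an unadjusted p under 0.05 was 4, where 16.9% of all genes had one. In DDX3Xoe and DDX3Yoe cells 0 of 35 were called between the guides and 0 had an unadjusted p under 0.05, where 0% of all genes were called and 2.07% and 1.00% had an unadjusted p under 0.05. edgeR and DESeq2 on the recovered reads also called 0 of the 35 in each of the 12 comparisons. The spread between libraries of a group was large. TRIB3 averaged 172.7 ± 36.1 normalised reads in parental cells with guide 395 and 261 ± 345 with AAVS1 (SD, n = 3 each), and its log2 fold change was 0.33 (SE 1.22). The fold change compares means of log2 values and so differs in direction from the plain means. With AAVS1 the plain mean was carried by number 3, which lay 3.41 above the other numbers on the log2 scale. The ATF4 message averaged 5826 ± 369 in parental cells with guide 395 and 7666 ± 3874 with AAVS1 (SD, n = 3 each), a log2 fold change of -0.23 (SE 0.50).

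The gene closest to a call in parental cells was PHGDH, which had 729.7, 504 and 405 normalised reads with guide 395 in replicates 1, 2 and 3, against 1113, 1255 and 2223 with AAVS1. The guides did not overlap. This gave a log2 fold change of -1.46 (SE 0.54), with 0.162 as limma's adjusted p. With the replicate number as a block, PHGDH passed at a limma adjusted p of 0.0324, the only one of the 35 to do so, where 4.45% of all genes did. The block assumes that same-numbered libraries deviate together, as parental libraries did over all genes. PHGDH itself did not: number 3 was its lowest library with guide 395 and its highest with AAVS1. Without single libraries or numbers the PHGDH log2 fold change ranged from -1.89 to -0.96.

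PSPH, PCK2 and SLC7A11 also had all 3 libraries with guide 395 below all 3 with AAVS1 in parental cells, so that 4 of the 35 genes did not overlap in this direction, where 9.86% of all genes tested did, and 0 of 35 did in the other direction, where 10.7% did. PSPH had 544, 496 and 414 normalised reads with guide 395 (replicates 1, 2 and 3), against 697, 803 and 1256 with AAVS1, with a limma adjusted p of 0.259. PCK2 had 55.4, 23.6 and 22.9 with guide 395, against 83.3, 71.9 and 229.8 with AAVS1, with a limma adjusted p of 0.263 and 0.0594 with the block. SLC7A11 had 715, 507 and 596 with guide 395, against 994, 883 and 1472 with AAVS1. In DDX3Xoe cells 0 of the 35 genes lay apart between the guides in either direction (1.83% of all genes above and 2.04% below), and in DDX3Yoe cells likewise 0 (3.8% above and 3.69% below). The difference of the PHGDH effect between lines, DDX3Yoe minus parental, was 1.63 on the log2 scale with a limma adjusted p of 1.00, and DDX3Xoe minus parental 1.25 with a limma adjusted p of 0.713.

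The median log2 fold change of the 35 genes between guide 395 and AAVS1 was -0.20 in parental cells, with 13 genes above 0 and 22 below, where all genes had a median of 0.017. In DDX3Xoe cells it was -0.035 with 13 above and 22 below, or -0.022 without both replicate 1 libraries, and in DDX3Yoe cells 0.13 with 22 above and 13 below. All genes had medians of -0.016 in DDX3Xoe and -0.0021 in DDX3Yoe cells. The share of all genes above 0 was 51.1% in parental, 48.2% in DDX3Xoe and 49.6% in DDX3Yoe cells. None of the medians of the 35 genes kept its sign when single libraries were left out. The parental median was 0.17 without replicate 3 of AAVS1 and 0.11 without replicate 3 of every group.

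Libraries with the same number were then set against each other as pairs. The genes were chosen for following the number, so the pairs numbered 3 largely restate the differences by group given above. They are a description and no further evidence of a guide effect. In parental cells the pair numbered 3 had a median log2 difference of -1.26 between guide 395 and AAVS1, with 31 of the 35 genes below 0 and 23 at or below -1, a level reached by 9.40% of all genes. The pair numbered 1 had 0.52, with 21 genes above 0, and the pair numbered 2 had -0.015. In DDX3Xoe cells the pair numbered 3 had 0.024, and those numbered 1 and 2 had -0.25 and 0.037, of which the pair numbered 1 is the one that goes against its labels. In DDX3Yoe cells the pair numbered 3 had -0.039, and those numbered 1 and 2 had -0.0049 and 0.47. In DDX3Xoe and DDX3Yoe cells both guides were thus high together in number 3, while in parental cells AAVS1 was high there and guide 395 was not.

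**Figure D4:**
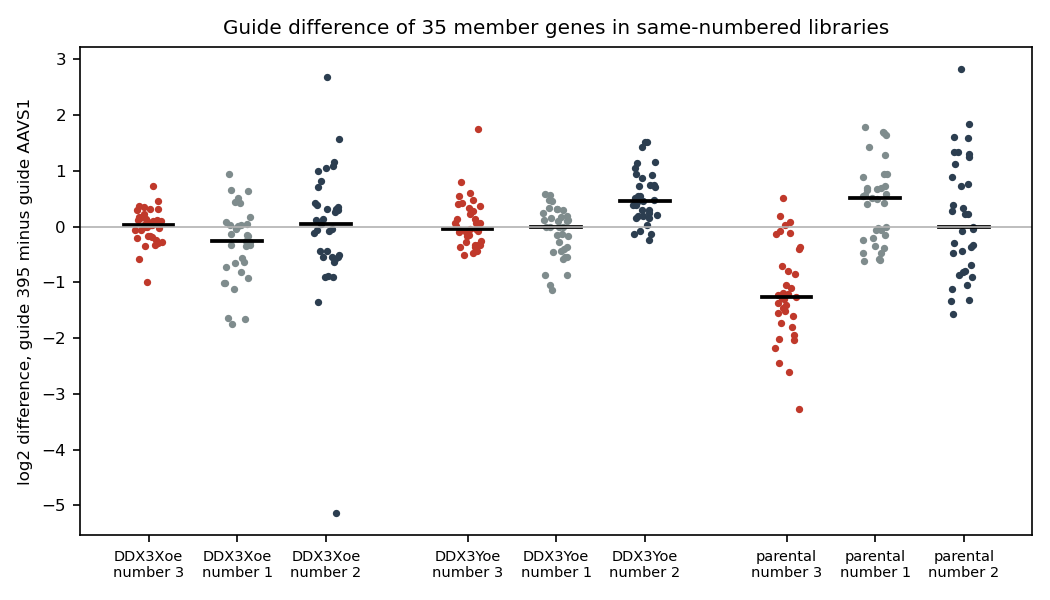
Each point is 1 of the 35 genes, plotted as the log2 difference between guide 395 and AAVS1 in libraries of the same number, with the line and number on the x axis; black bars are medians. The pair numbered 3 of parental cells stands lowest, with a median of -1.26 and 31 of 35 genes below 0, and the other 8 pairs have medians between -0.25 and 0.52.

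Between lines under guide 395, 0 of the 35 genes were called in DDX3Xoe against parental cells (2% of all genes), with 3 at an unadjusted p under 0.05 (17.6% of all genes), and 0 in DDX3Yoe against parental cells (0.204%), with 1 at an unadjusted p under 0.05 (13.3%). The median log2 fold changes were 0.20 and 0.075, with 22 of 35 genes above 0 in each, where 47.2% and 48.7% of all genes were. Both comparisons share the parental libraries. Under AAVS1, 0 of 35 were called in DDX3Xoe or DDX3Yoe against parental cells, where 0% of all genes were, with 0 at an unadjusted p under 0.05, and the medians were -0.011 and -0.18. Leaving out replicate 1 of both DDX3Xoe groups, so that number 3 was 1 of 2 libraries in each, gave a median of DDX3Xoe against parental cells of 0.55 under guide 395 and 0.26 under AAVS1, with 0 calls in each. DDX3Yoe against DDX3Xoe cells gave 0 calls under either guide, and 0 of the 35 at an unadjusted p under 0.05, where 0% of all genes were called. The medians were -0.17 under AAVS1 (8 genes above 0, 27 below) and 0.007 under guide 395 (18 above, 17 below). Without both replicate 1 libraries labelled DDX3Xoe they were -0.33 (6 above, 29 below) and -0.30 (10 above, 25 below), with 0 calls in each. The guide effect was not called as different between lines for any of the 35 genes, where 0.046% of all genes were called for DDX3Xoe minus parental and 0% for DDX3Yoe minus parental and for DDX3Yoe minus DDX3Xoe. Unadjusted p-values under 0.05 were found for 0, 1 and 0 of the 35 in these 3 differences, and for 8.14%, 4.84% and 1.49% of all genes. The medians over the 35 genes were 0.17, 0.28 and 0.20. Without both replicate 1 libraries labelled DDX3Xoe the median was 0.16 for DDX3Xoe minus parental and 0.14 for DDX3Yoe minus DDX3Xoe. Both differences then had 0 calls among the 35 and 0 among all genes.

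Of the other lists, the tRNA synthetases were called in 2 instances, 1 of 20 in each of 2 comparisons. Of all genes tested 1.78% were called between the guides in parental cells and 2% in DDX3Xoe against parental cells under guide 395. A count of 1 is not read as a result about the list. QARS1, which charges tRNA with glutamine, fell in parental cells with guide 395, with 552, 505 and 447 normalised reads in replicates 1, 2 and 3, against 1059, 1399 and 789.9 with AAVS1, a log2 fold change of -1.08 (SE 0.25) at a limma adjusted p of 0.0343. LARS1, which charges tRNA with leucine, was higher in DDX3Xoe than in parental cells under guide 395, with 901, 630.2 and 1029 normalised reads, against 314, 478 and 429.7, a log2 fold change of 1.06 with a limma adjusted p of 0.0346. Both calls depended on the settings and on single libraries. In a fit of the compared groups alone the limma adjusted p was 0.139 for QARS1 and 0.0871 for LARS1, without the intensity trend 0.0605 and 0.0543, and without the filter QARS1 had 0.0544. The adjusted p of QARS1 ranged from 0.0229 to 0.292 over left-out libraries and was above the threshold without any 1 library of the parental groups but replicate 3 of AAVS1, and without replicate 2 of DDX3Yoe cells with guide 395. LARS1 lost its call without both replicate 1 libraries labelled DDX3Xoe (limma adjusted p of 0.1002), without replicate 1 (0.117) or 3 (0.103) of DDX3Xoe cells with guide 395, and without replicate 1 (0.169) or 3 (0.0854) of parental cells with guide 395. In parental cells 17 of the 20 synthetases had a log2 fold change below 0 between guide 395 and AAVS1, with a median of -0.46. In that comparison 51.1% of all genes tested were above 0, with a median of 0.017. LARS1 did not pass there without the block (limma adjusted p of 0.0737) and did with it (0.0303).

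In the lists of eIF2 kinases and factors, chaperones and further ATF4 targets 0 genes were called in parental cells between the guides. Those with the smallest p were LAMP3, a lysosomal membrane protein, with 732, 317 and 472 normalised reads in replicates 1, 2 and 3 with guide 395, against 28.2, 17.4 and 149 with AAVS1, and KLHL24, with a log2 fold change of 0.79. The LAMP3 fold change was 3.47 on the log2 scale, with a limma adjusted p of 0.0752 that the block turned into 0.0112. LAMP3 is also induced by interferon, and within each AAVS1 group its number 3 library was the highest. For the eIF2 kinase EIF2AK1 and the GCN2 activator GCN1 the log2 fold changes were 0.54 and -0.58 with limma adjusted p-values of 0.137 and 0.246. For the chaperone genes DNAJB9 and EDEM1 they were 1.70 and 0.96 with 0.286 and 0.532. Among the cell type markers NES, the intermediate filament nestin, fell in parental cells with guide 395, by 1.71 on the log2 scale with a limma adjusted p of 0.00314, and was higher by 1.96 in DDX3Xoe and by 2.10 in DDX3Yoe than in parental cells under guide 395 (limma adjusted p of 0.00295 and 0.00338). These NES calls held without any single library but not without a whole number: the limma adjusted p of the parental guide comparison was 0.0577, 0.0985 and 0.105 without number 1, 2 and 3, and those of the lines were up to 0.114 and 0.237. Its part in the results on the 35 genes was not tested.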

How the data were processed

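Per the labels' protocols, day 7 RNA was made into QuantSeq libraries, which read transcript 3' ends. Build GRCh38 and the tools featureCounts 1.5.1, STAR 2.5.2b, limma and RSEM 1.3.0 stand in the submitters' processing notes. Neither annotation nor strandedness of counting was given in the sources used here. From its values, the deposited signal is a gene count scaled by the authors with a size factor for each library. Dividing by each library's step returned whole reads for 100% of values, within 0.01. Gene positions came from GENCODE 29.

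The test was limma 3.58.1 (R 4.3.3) on log2(value + 1), with 6 group means over 18 libraries, 12 residual degrees of freedom and an intensity trend. Genes needed 10 normalised reads or more in 3 or more libraries, which 15228 had. Calls were made at a Benjamini-Hochberg adjusted p under 0.05. The recovered reads were tested with edgeR 4.0.16 and DESeq2 1.42.0. On simulated data the limma and edgeR steps were checked. Over all genes tested, same-numbered libraries deviated together in parental cells between guides (correlations 0.57, 0.20 and 0.28). They also did so in DDX3Xoe or DDX3Yoe against parental cells under AAVS1. The replicate block was an alternative fit with a number effect common to all 18 libraries, run for all 12 comparisons. In other comparisons correlations went down to -0.29 (replicate 1, DDX3Yoe against parental cells under guide 395). The list, the other lists, the tests and the rule for named genes were chosen with earlier results of these data known. Values in every library were given for ATF4 and the 3 genes of each role with the largest mean number difference above the 40th percentile of expression, and for other lists the 2 genes of smallest p in parental cells and any called. The alternatives were other pseudocounts, filters, scalings and tools, the block, and leaving out libraries.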

Additional observations from a re-analysis of the deposited data

How the results depend on the processing

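Over 36 alternatives (other pseudocounts, filters, scalings, variance models and tools, the replicate block, and leaving out libraries) the 12 comparisons gave 432 counts of called genes among the 35, of which 429 were 0. The other 3 were 1: with the replicate block, 1 gene (PHGDH) in parental cells between guides and 1 gene (CEBPB, adjusted p 0.0489) in DDX3Xoe against parental cells under guide 395, and with edgeR and the block, an alternative chosen after seeing the data, 1 gene (CEBPB, edgeR adjusted p 0.0406) in that comparison. The libraries of that comparison share only a number (correlations 0.13, -0.03 and 0.19), and all genes called there were 723 with the block, against 305 without. The block changed no other call of the 35. Leaving out libraries gave counts of 0 to 0 in every comparison. The number of genes with number 3 highest in at least 5 groups was 30 and ranged from 30 to 33. The promoter count was 0 genes with TGATGNAAT and 9 with TGATGNAA. The median fold change of the 35 genes between guides ranged, over left-out libraries, from -0.63 to 0.17 in parental, -0.67 to 0.37 in DDX3Xoe and -0.30 to 0.68 in DDX3Yoe cells; the cause was not tested. Depth limits genes with few reads such as ALDH1L2, PCK2 and TRIB3. Over all genes, the parental guide comparison called 271 with limma, 244 with edgeR, 927 with DESeq2 and 677 with the replicate block, and DDX3Xoe against parental cells under guide 395 called 305, 230 and 803 with the 3 tools and 98 without both replicate 1 libraries labelled DDX3Xoe. DDX3Yoe against parental cells under guide 395 called 31, 16 and 408.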
